A study of Solanum lycopersicum with 9 samples.

Results

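The comparison set line c2.11 against line c2.5, a pair of tomato lines of the dwarf cultivar Micro-Tom that were both CRISPR-edited in the gene SlZFP2. It used 6 of the 9 libraries of the series, 3 of each line, chosen by their labels, and the wild type (WT) Micro-Tom libraries took no part in the test. Every library held RNA from the locular tissue of fruits at 6 days after anthesis, pooled from 6 fruits whose developing seeds had been removed. The sources used here do not give the edited bases, the number of plants behind a pool, or whether a line was homozygous or free of the editing transgene. Nothing says that the 3 libraries of a line came from separate plants or days, so the p-values measure the spread between these pools, which may be technical.

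Locular tissue is the gel-forming tissue that grows out of the placenta of a tomato fruit and encloses the seeds. SlZFP2 encodes a C2H2 zinc finger transcription factor, a class of proteins that bind DNA through small zinc-stabilised folds, and it is known in tomato fruit as a repressor of abscisic acid synthesis genes. Separately edited lines share the targeted gene, while the edit itself and the rest of the genome can differ between them. A direct contrast of the lines asks which transcripts differ between plants that carry the same kind of edit.

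The gene identifiers of the count table stand without names, and the RefSeq gene table matched 0 of these identifiers, so genes are described by chromosome, level and behaviour, and what they encode is not stated. Markers of seed, epidermis or vascular tissue could not be looked up for the same reason, and their part in any difference was not tested. In bulk tissue, fewer cells of a type and less RNA per cell cannot be told apart.

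No value is given for SlZFP2 by name. The identifier Solyc07g053570.4 had been written down for it from general knowledge, but its place does not match that of ZFP2 in the reference table. Whether that entry is the edited gene was not tested, so the pairing of name and identifier stays undecided. In the reference table ZFP2 is number 199 of 2705 genes along chromosome 7, at 7.36% of the order, while the identifier is number 1649 of 2517 on that chromosome in the count table, at 65.5%. Solyc07g053570.4 itself had 34, 49 and 30 counts in c2.11 and 31, 15 and 30 in c2.5. The groups overlapped, and its log2 difference of 0.56 ± 0.29 (SE) did not pass the threshold (edgeR quasi-likelihood test, Benjamini-Hochberg adjusted p = 0.323). The line labels were therefore not checked against the targeted gene.

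The 6 libraries were evenly deep, with 19963325 to 20727310 counts and 22330 to 22740 genes with a count. Total count, genes detected and the share of the most abundant 1, 10 and 100 genes did not separate the lines (exact two-sided permutation tests, p = 0.2 to 0.9, where 3 libraries against 3 cannot go below 0.1; adjusted p = 0.833 to 0.9 over 5 measures). A principal component analysis of the 6 libraries separated the lines on its first axis (38.7% of the variance), where c2.11 lay between -27.2 and -16.1 and c2.5 between 17.7 and 22.0. The second axis (24.5%) set replicate 3 of both lines (-22.1 and -20.6) apart from c2.11 replicate 1 and c2.5 replicate 2 (17.4 and 17.7).

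c2.5 replicate 2 lay apart from its line in a set of genes with few counts in the other line libraries. Over all rows of the table, 63 genes reached 1 CPM there and exceeded c2.5 replicates 1 and 3 by 4-fold or more. The same search gave 0 to 25 genes for the other 5 line libraries. The median count of those 63 genes was 70 in c2.5 replicate 2, 4 and 1 in c2.5 replicates 1 and 3, and 1 to 3 in the c2.11 libraries. In WT, which did not choose them, the median counts were 92, 17 and 27. Only 10 of the 63 entered the test of the lines, since the filter on low counts was set on the lines alone.

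Over the genes tested, c2.5 replicate 2 was close to its line. Its Spearman correlation with c2.5 replicate 1 was 0.9956, the highest of all 15 library pairs, and with c2.5 replicate 3 it was 0.9938. Pairs within c2.11 reached 0.9937 to 0.9949 and pairs between the lines 0.9914 to 0.9939, so the within-line and between-line ranges overlapped slightly. The biological coefficient of variation, the replicate spread beyond counting noise, was 8.69% in c2.11 and 7.11% in c2.5. For c2.5 it was 6.80% without replicate 2, 6.26% without replicate 3 and 8.26% without replicate 1.

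The lines differed in 626 of 19009 tested genes, or 3.29%. Of these, 374 (1.97% of tested genes) were higher in c2.11 and 252 (1.33%) were lower (edgeR quasi-likelihood test on the 6 libraries, Benjamini-Hochberg adjusted p below the threshold of 0.05). Most differences were small: the median size over called genes was 0.34 on the log2 scale, or 1.26-fold, beside 0.10 over all tested genes. At least 1.5-fold differences numbered 183, at least 2-fold 121 (0.637% of tested genes) and at least 4-fold 51. The 3 c2.11 libraries did not overlap the 3 c2.5 libraries in any of the 626 genes, nor in 4684 of all 19009 genes (24.6%, beside the 3.29% that were called). An unadjusted p below 0.05 was reached by 3639 genes.

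Direction and size went apart. Among called genes below 2-fold, 323 were higher in c2.11 and 182 lower, while among those of at least 2-fold 51 were higher and 70 lower. The small differences that were called lay mainly in abundant transcripts. In the highest quartile of mean level (48.9 normalized CPM and more) 283 of 4753 genes were called, or 5.95%, 197 of them higher in c2.11, and only 2 reached 2-fold. With total count scaling 64.3% of the 269 calls in that quartile were higher in c2.11. In the lowest quartile (0.347 to 5.69 CPM) 126 genes were called, or 2.65%, and 102 of these were at least 2-fold. The median SE was 0.24 on the log2 scale there and 0.05 in the highest quartile. Small differences at low levels could therefore mostly not be called, so the calls do not show where all small differences lie.

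**Figure D1:**
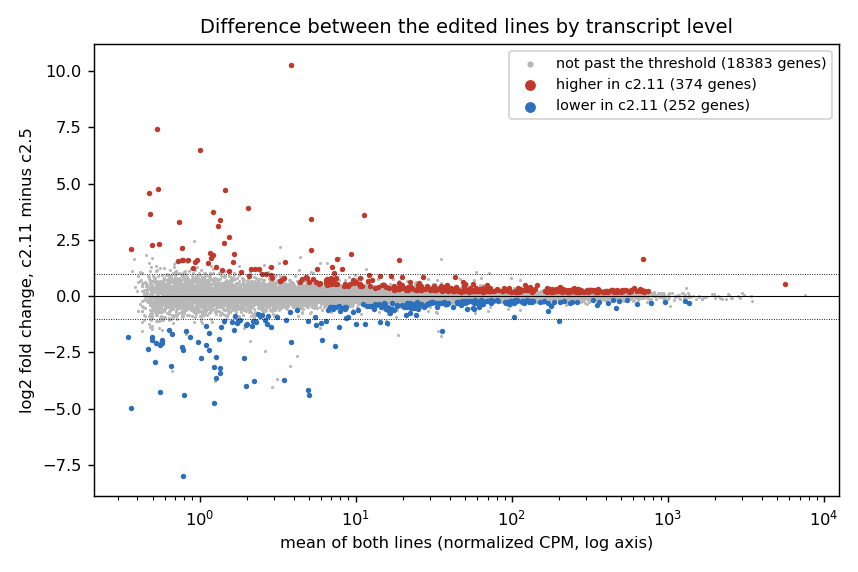
Log2 fold change of c2.11 over c2.5 (vertical axis) against the mean normalized CPM of both lines (horizontal log axis) for the 19009 tested genes; dotted lines mark 2-fold. The 374 genes higher and 252 lower in c2.11 fan out at low levels, while nearly all called genes of the highest quartile lie within 2-fold.

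For most genes the data bounded the difference. The 95% interval of the log2 fold change lay within 2-fold either way for 17386 of 19009 genes (91.5%), within 1.5-fold for 14957 (78.7%) and within 1.2-fold for 8240 (43.3%). Precision followed depth: the median SE was 0.24 on the log2 scale in the lowest quartile of level and 0.05 in the highest. In the highest quartile 97.6% of genes were bounded within 1.5-fold, and in the lowest 29.4%. Of the 14957 genes bounded within 1.5-fold, 372 were nonetheless called, a difference that is small and larger than the replicate spread.

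Without c2.5 replicate 2, 331 of 19155 tested genes were called, or 1.73%, with 209 higher in c2.11 (1.09%) and 122 lower (0.637%). Of these, 291 were among the 626, which is 46.5% of the larger list and 87.9% of the smaller, and all 291 kept their direction. At least 2-fold differences numbered 82 (0.428% of tested genes), and 76 genes were called and at least 2-fold both ways. The other 335 of the 626 genes were tested again and all kept their direction. The lines overlapped in none of the 626 genes, so leaving out 1 library could hardly turn a direction. The kept directions of the 291 and the 335 are therefore no independent check. Their median size was 0.29 on the log2 scale with all 6 libraries and 0.28 without the library, while their median SE went from 0.06 to 0.07. Their adjusted p without the library ran from 0.0511 to 0.153, and each still had an unadjusted p below 0.05. The median size over these 335 genes thus hardly moved while their median SE rose. Single genes moved both ways, with a larger fold without the library in 158 of the 335. Of the 331, 40 were called only without the library, and 4 of those 40 had not passed the filter with all 6.

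**Figure D2:**
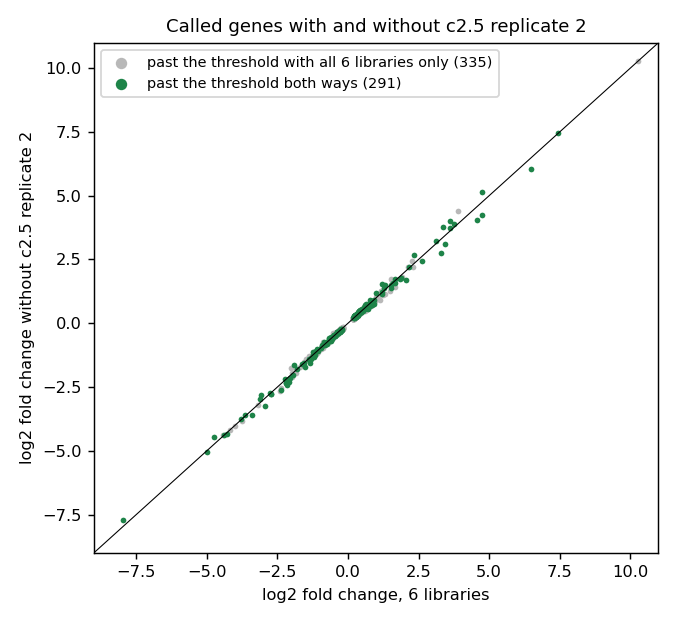
Log2 fold change of the 626 called genes with all 6 libraries (horizontal) and without c2.5 replicate 2 (vertical); the line marks equal values. The 291 genes called both ways and the 335 called with all 6 only lie along the same line.

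Leaving out c2.5 replicate 2 was not the most consequential removal. Without c2.5 replicate 1 the count fell to 180, and without c2.5 replicate 3 it was 338. Without c2.11 replicates 1, 2 and 3 it was 334, 451 and 618. Higher genes outnumbered lower genes in every one of these counts, most narrowly without c2.5 replicate 1, with 92 against 88. With WT added to the fit, so that its libraries shared the estimate of the spread, 249 genes were called, and 244 of them were among the 626. In that fit without c2.5 replicate 2 the balance of directions turned, with 44 higher and 48 lower genes.

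**Figure D3:**
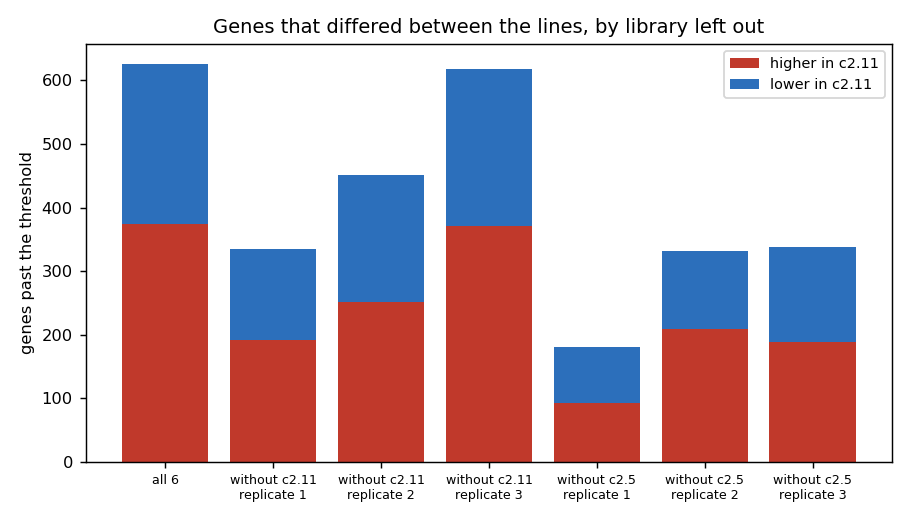
Number of genes past the threshold with all 6 line libraries and with each library left out in turn, stacked by direction. The bar is highest with all 6 libraries (626) and lowest without c2.5 replicate 1 (180).

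The genes with the largest differences that held both with and without c2.5 replicate 2 were 4 genes of 5 CPM or more in the higher line, taken from 162 higher and 79 lower genes that met this rule. Levels in the next sentences are normalized CPM on a scale common to all 9 libraries, so that WT can stand beside the lines.

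Solyc08g023340.4 on chromosome 8 was at 19.4, 19.4 and 20.0 in c2.11, at 1.34, 1.89 and 1.61 in c2.5 and at 0.600, 0.0570 and 0.932 in WT. All c2.11 libraries stood far above the rest, and the c2.5 libraries stood above WT. The means were 19.6 ± 0.336 in c2.11 and 1.61 ± 0.272 in c2.5 (SD, n = 3 libraries each), a 12.1-fold difference. The log2 difference was 3.60 ± 0.12 (SE, edgeR adjusted p = 6.86e-09), and 3.73 ± 0.12 without c2.5 replicate 2 (edgeR adjusted p = 1.04e-07). This was the smallest adjusted p of the comparison.

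Solyc12g062200.1 on chromosome 12 was at 9.06, 9.52 and 8.06 in c2.11, at 1.25, 0.425 and 0.783 in c2.5 and at 5.84, 2.79 and 3.96 in WT. WT lay between the lines, with all its libraries below c2.11 and above c2.5. Between c2.11 and c2.5 the log2 difference was 3.43 ± 0.25 (edgeR adjusted p = 5.11e-05), and 3.12 ± 0.20 without c2.5 replicate 2, its lowest library (edgeR adjusted p = 3.12e-05).

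Solyc02g005110.3 on chromosome 2 went the other way, at 2.93, 1.74 and 2.66 in c2.11, at 12.3, 9.30 and 12.2 in c2.5 and at 4.69, 3.76 and 5.01 in WT. Again WT stood between the lines without overlap. The log2 difference was -2.21 ± 0.18 (edgeR adjusted p = 0.000119), and -2.33 ± 0.18 without c2.5 replicate 2 (edgeR adjusted p = 0.000161).

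Solyc10g044525.1 on chromosome 10 was at 1.44, 1.19 and 1.54 in c2.11, at 5.51, 5.24 and 6.72 in c2.5 and at 0.218, 0.399 and 0.641 in WT. Both lines were above WT, and c2.5 was the highest. The log2 difference was -2.06 ± 0.18 (edgeR adjusted p = 5.35e-05), and -2.13 ± 0.19 without c2.5 replicate 2 (edgeR adjusted p = 0.000477).

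**Figure D4:**
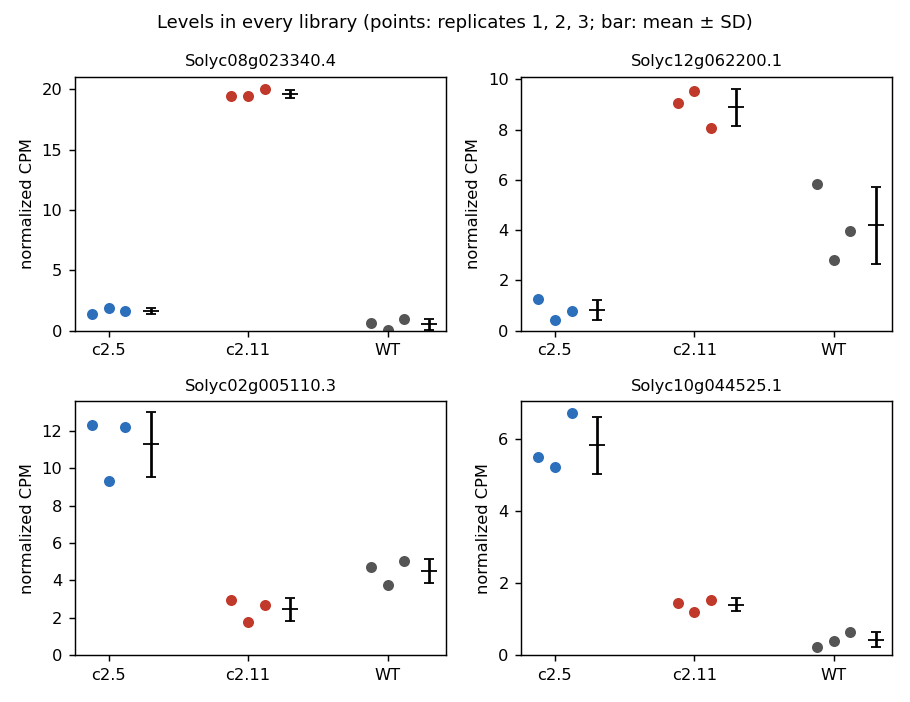
Normalized CPM of the 4 named genes in each library of c2.5, c2.11 and WT; points are replicates 1 to 3 and the bar beside them is the mean ± SD (n = 3). In each panel the c2.11 and c2.5 points do not overlap, and WT lies between the lines for Solyc12g062200.1 and Solyc02g005110.3.

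Several well-counted transcripts also differed, by smaller folds than the 4 named genes. Their identifiers are left out, and they were picked after their values were seen. On chromosome 4, a gene had 20461, 22430 and 20886 counts in c2.11, 6086, 7306 and 6629 in c2.5 and 5065, 3781 and 3964 in WT. It was 3.17-fold higher in c2.11, at 1051 against 332 normalized CPM (log2 difference 1.66 ± 0.07, edgeR adjusted p = 3.19e-07), the largest fold among called genes of the highest quartile. The c2.5 libraries were closer to WT.

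On chromosome 3, a gene had 2771, 2457 and 2616 counts in c2.11 and 5494, 5477 and 5674 in c2.5, beside 662, 723 and 776 in WT. Here c2.11 was the line closer to WT, and the log2 difference was -1.09 ± 0.05 (edgeR adjusted p = 2.96e-07). On chromosome 1, a further gene followed the same order, with 395, 351 and 363 counts in c2.11, 1058, 1033 and 1132 in c2.5 and 242, 184 and 173 in WT, a log2 difference of -1.54 ± 0.06 (edgeR adjusted p = 8.34e-08).

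The most abundant called gene lay on chromosome 7, with 133471, 145556 and 121340 counts in c2.11 and 93734, 85595 and 98877 in c2.5. It was 1.43-fold higher in c2.11 (log2 difference 0.52 ± 0.06, edgeR adjusted p = 0.00148). The WT counts were 72501, 78159 and 75244. Raw counts of WT and of the lines are not on one scale, so no order of c2.5 and WT is stated. Without c2.5 replicate 2 these 4 genes stayed past the threshold, with edgeR adjusted p of 1.04e-07, 6.49e-06, 1.33e-06 and 0.0108 in the order given.

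WT did not enter the calls, so its level says which line stood further from it; both distances use the same WT libraries. Over the 626 called genes the WT mean lay between the lines in 213 (34.0%), outside them and nearer c2.5 in 290 (46.3%), and outside and nearer c2.11 in 123 (19.6%). Over all 19009 tested genes the same places held 12.2%, 51.2% and 36.6%. With total count scaling the called genes fell 20.1%, 56.7% and 23.2%, and all tested genes 7.72%, 49.4% and 42.8%. The median distance from WT over called genes was 0.40 on the log2 scale for c2.11 and 0.26 for c2.5, beside 0.29 and 0.26 over all tested genes. These places and distances are a description, with no test. Called genes were chosen for a wide gap between the lines, with a median of 0.34 on the log2 scale beside 0.10 over all tested genes. A WT mean falls within a wider gap more easily, so the values of called and of all genes cannot be set side by side.

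The 374 genes higher and the 252 lower in c2.11 were placed differently. WT was nearer c2.11 in 52 of the 374 (13.9%) and in 71 of the 252 (28.2%), and nearer c2.5 in 185 (49.5%) and 105 (41.7%). Among the 121 genes of at least 2-fold, WT lay between the lines in 46, nearer c2.5 in 34 and nearer c2.11 in 41.

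A small group of called genes was nearly silent in WT and counted in at least 1 of the lines. With at most 3 counts in every WT library and at least 10 in every library of the higher line, 18 called genes were higher in c2.5 and 8 in c2.11. These limits were chosen after seeing the data. With few counts in the lower line, most of these genes passed the filter on low counts only through the higher line. A large difference between the lines was thus part of how they entered the test, and their adjusted p are no separate support. Without c2.5 replicate 2, 10 of the 18 and 5 of the 8 remained past the threshold, beside 46.5% of all 626 called genes. How many of all tested genes met the limits was not counted.

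The 18 genes differed among themselves in how even they were within a line, and the limit of 10 counts in every c2.5 library was part of their choice. Their summed counts were 1070, 1063 and 1134 in c2.5, 161, 31 and 81 in c2.11 and 15, 9 and 10 in WT. In c2.11 replicate 2, 10 of the 18 had no count, against 1 and 5 in c2.11 replicates 1 and 3, and 1 gene was at 0 in all 3. Not all dropped in replicate 2: a chromosome 10 gene had 5, 7 and 8 counts in c2.11 and 44, 42 and 48 in c2.5. A gene on chromosome 4 had 180, 195 and 205 counts in c2.5, 20, 0 and 7 in c2.11 and 0, 0 and 1 in WT. A gene on chromosome 10 had 202, 178 and 184 counts in c2.5, 22, 0 and 9 in c2.11 and 0 in each WT library. Both had replicate 1 highest and replicate 2 at 0 among the c2.11 libraries, and in 7 of the 18 genes replicate 1 was above replicate 3 and replicate 3 above replicate 2. The 18 genes lay on chromosomes 2, 3, 4, 7, 10 and 12. Without c2.5 replicate 2 the edgeR adjusted p of the pair just described rose from 0.0355 and 0.0457 to 0.125 and 0.139.

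The 8 genes higher in c2.11 summed to 390, 401 and 540 counts in c2.11, 38, 62 and 51 in c2.5 and 11, 7 and 5 in WT. Most of the c2.5 sum came from 1 gene on chromosome 10, with 27, 42 and 31 counts in c2.5 and 85, 68 and 94 in c2.11. Another gene on that chromosome had 51, 45 and 74 counts in c2.11, 1, 3 and 2 in c2.5 and 2, 0 and 0 in WT (log2 difference 4.74, edgeR adjusted p = 5.35e-05, and 0.000695 without c2.5 replicate 2).

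**Figure D5:**
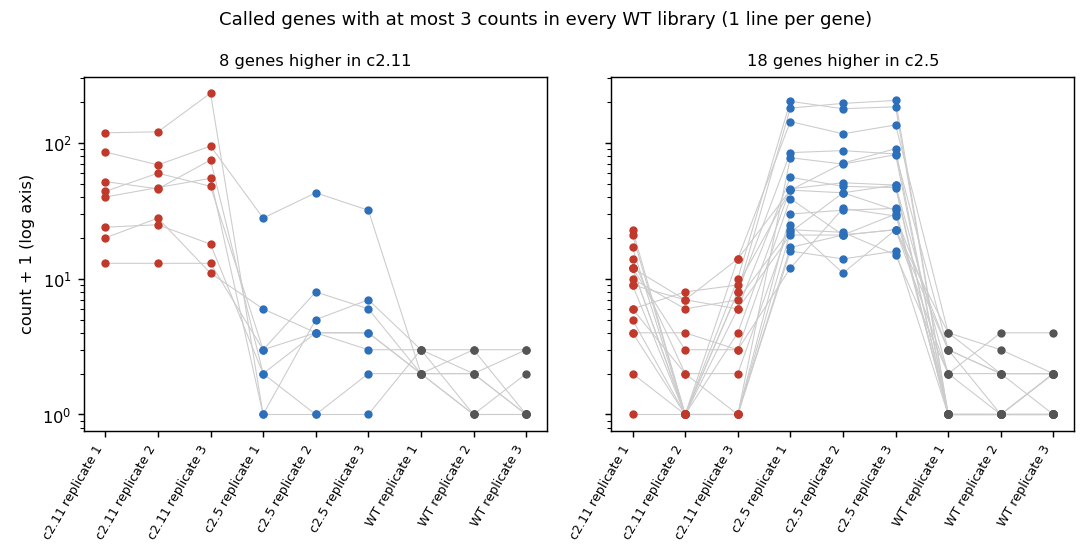
Counts plus 1 (log axis) in all 9 libraries for the called genes with at most 3 counts in every WT library, 1 grey line per gene. Of the 8 genes higher in c2.11 (left), 1 keeps 27 to 42 counts in c2.5, and of the 18 higher in c2.5 (right), 10 are at 0 in c2.11 replicate 2.

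Other called genes were counted in WT and nearly absent from 1 line, by limits likewise chosen after seeing the data. The limits were at least 10 counts in every WT library and at most 10 in every library of the lower line. By them 8 called genes were low in c2.5 and 5 in c2.11. Of these, 6 and 3 remained called without c2.5 replicate 2, beside 46.5% of all 626 called genes. How many of all tested genes met these limits was not counted. These genes too passed the filter on low counts through the higher line, so their adjusted p are no separate support. On chromosome 5, a gene had 20, 26 and 19 counts in c2.11 and 20, 20 and 18 in WT, but 0 in all 3 c2.5 libraries. Against a floor of 3 counts over the c2.5 libraries it was at least 21.4-fold higher in c2.11 (edgeR adjusted p = 0.000892, and 0.00514 without c2.5 replicate 2). Its neighbour had 22, 42 and 18 counts in c2.11, 5, 0 and 3 in c2.5 and 19, 12 and 10 in WT (edgeR adjusted p = 0.0165, and 0.0331 without that library). The reverse was seen on chromosome 3, where a gene had 1, 5 and 9 counts in c2.11, 36, 54 and 44 in c2.5 and 41, 34 and 29 in WT (edgeR adjusted p = 0.00239, and 0.0154 without that library).

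Complete absence from 1 line was rare and shallow. In all, 43 genes had a count in each c2.11 library and 0 in all c2.5 libraries, and 50 genes the reverse. Of these, 2 of the 43 and 1 of the 50 passed the filter on low counts and were tested, and all 3 were called. A gene at 0 in 1 line passes that filter only through the libraries of the other line. That those tested were called was therefore largely set in advance. The deepest, on chromosome 1, had 118, 120 and 232 counts in c2.11, 0 in c2.5 and 2, 2 and 0 in WT. It was at least 155-fold higher in c2.11 against the same floor (edgeR adjusted p = 0.0272), and just missed the threshold without c2.5 replicate 2 (0.0538). The tested gene of the reverse kind, on chromosome 4, had 21, 42 and 31 counts in c2.5 and 0 in all c2.11 and WT libraries (edgeR adjusted p = 0.000753, and 0.00514 without c2.5 replicate 2). The floors cover counting error only.

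Called genes lay on all 12 numbered chromosomes, read from the digits of the identifiers. The share called ran from 2.55% on chromosome 9 (35 of 1375 genes) to 4.60% on chromosome 10 (57 of 1238), around the 3.29% of all genes. On chromosome 10, 41 of the 57 were higher in c2.11, while chromosomes 2 and 12 held more lower than higher genes (38 against 31, and 21 against 19). Chromosome 7, which carries SlZFP2, had 38 of 1431 genes called, or 2.66%. For genes called both with and without c2.5 replicate 2 the lowest share was 0.839%, on chromosome 7, beside 1.53% of all tested genes.

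Some called genes were neighbours in the order of tested genes. Untested genes lay between the members of some of these pairs. Of 18988 pairs of neighbouring tested genes, 47 had both members called, 34 of them in the same direction (20 higher and 14 lower in c2.11). Of called genes, 14.4% had a called neighbour, beside 6.42% of all tested genes, and no run was longer than 3 genes. Genes called both with and without c2.5 replicate 2 made up 13 of the pairs, 9 of them in the same direction. A pair on chromosome 12 belonged to the nearly WT-silent genes above, with 77, 69 and 81 and 29, 31 and 32 counts in c2.5. In c2.11 it had 13, 1 and 0 and 4, 0 and 0. Whether neighbouring or near-identical genes share reads was not tested, since no source used here gives the treatment of strand and of multiply mapped reads.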

How the data were processed

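The deposited values are raw counts per gene, whole numbers in a table of 34075 genes with 1 column per library. FastQC and featureCounts are named without versions in the submitters' processing notes. The aligner, build, annotation and strandedness of the counting are unstated (not given in the sources used here). Per the labels' protocols, sequencing was paired, 150 bases a read, from stranded mRNA libraries.

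The 6 line libraries were compared with edgeR 4.0.16 (R 4.3.3): filterByExpr on the 2 lines (19009 genes), TMM, robust glmQLFit and glmQLFTest, Benjamini-Hochberg adjustment over all genes tested, threshold 0.05. The standard error is the log2 fold change divided by the square root of F. The test was checked on simulated counts. DESeq2 1.42.0 was an alternative, beside other scalings and filters, WT in the fit, a replicate block and removal of each library. WT places used log2(CPM + 0.5). Named genes passed with and without c2.5 replicate 2, had at least 5 CPM in the higher line, and were the 2 highest and 2 lowest by the smaller log2 fold change. Gene lists and cell type markers were not applied, since 0 identifiers matched the 41476 genes of RefSeq assembly SLM_r2.1. The comparison, lists and rules were chosen with earlier results of these data known.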

Additional observations from a re-analysis of the deposited data

Results flagged for a closer look

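The difference from WT was not the same in both lines for the 626 genes called between the lines; WT cancels from this contrast, so it is the test of that difference.

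In 46 of the 626 genes (7.35%) every library of 1 line stood above all WT libraries and every library of the other below them, with c2.11 the higher line in 28. Over all tested genes this held for 65 of 19009 (0.342%). The pattern needs lines that do not overlap, which all 626 called genes met but only 4684 of the 19009. These shares therefore cannot be set side by side. With total count scaling the pattern held for 27 of the 626, and its share over all tested genes was not computed. The WT mean lay between the lines in 12.2% of all tested genes, and in 7.72% with total count scaling. Of the 46, 30 were also called without c2.5 replicate 2, beside 291 of all 626. The opposite departures from WT were not tested, and both use the same WT libraries.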

How the results depend on the processing

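The 626 calls stayed within 1.5 times under DESeq2 (645 genes, 491 of them shared), median-of-ratios factors, total count scaling, both filters on low counts and the replicate block (507, 444 shared). They moved to 249 with all 9 libraries in the fit, to 92 with those and without c2.5 replicate 2 (44 higher and 48 lower in c2.11), and to 183 at an adjusted p of 0.01. Without single libraries they ranged from 180 to 618, and DESeq2 without c2.5 replicate 2 gave 418. The 121 calls of at least 2-fold ranged from 63 to 121 without single libraries and moved to 75 with DESeq2 without c2.5 replicate 2, to 55 with all 9 libraries and without it, and to 60 at an adjusted p of 0.01. The 331 calls without c2.5 replicate 2 moved to 619 with no filter on low counts, to 92 with all 9 libraries, to 64 at an adjusted p of 0.01 and to 706 with the replicate block, where replicate 2 of c2.11 has no partner. A stricter threshold calls fewer genes by construction, and the cause of the other moves was not tested. For replicates 1, 2 and 3 the deviations of same-numbered libraries from the line means correlated at 0.03, 0.05 and 0.27. In addition, c2.11 replicate 1 correlated at 0.26 with c2.5 replicate 2, so no pairing by number was assumed. What libraries of different lines shared was not tested. The 4 named genes kept direction and call under all 16 alternatives. Removal of c2.5 replicate 2 was part of their choice, and the other alternatives reuse the libraries they were chosen on, so this is no independent check. Solyc07g053570.4 stayed below the threshold throughout, at 0.31 to 0.73 on the log2 scale (adjusted p = 0.262 to 0.942).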
